A study of Homo sapiens with 4 samples.

Results

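ETS factors are transcription factors that share a winged helix-turn-helix DNA-binding domain, and 10 of them are described here: the PEA3 group (ETV1, ETV4 and ETV5) and 7 other members (ETS1, ETS2, ELK1, ELK3, ELK4, ELF1 and GABPA). They were found by gene symbol among the 38972 genes of a table of transcript levels, and all 10 had a row. The list was selected on earlier results of the same comparison, in which ETV5 stood out, so the values below are a description and no test of these 10 genes is independent of that choice. No readout other than this comparison was at hand.

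The libraries came from HEK293T, an established line of human embryonic kidney cells that carries adenovirus E1A and SV40 large T antigen. Of the 4 libraries, 2 are labelled oeRNH1, for overexpression of RNase H1, which cuts the RNA strand of RNA-DNA hybrids, and 2 are labelled oeFlag, for overexpression of the Flag tag. How the proteins were delivered, and for how long they were made, is not stated in the labels. Nothing says that the 2 libraries of a group are separate cultures, so their spread may be technical.

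ETS factors bind a GGAA core and are among the classic end points of the RAS to ERK kinase pathway. ELK1, ELK3 and ELK4 are ternary complex factors, which sit on promoters beside serum response factor (SRF) and are phosphorylated by ERK. The PEA3 genes are themselves switched on downstream of FGF receptors and ERK, when the repressor Capicua (CIC) leaves their promoters, and the group takes its name from an activator of the polyomavirus enhancer. GABPA is a widely expressed factor that pairs with GABPB at housekeeping and mitochondrial genes, ELF1 is an activator, and ETS1 and ETS2 are direct targets of ERK phosphorylation.

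Promoter windows from RefSeq (GRCh38.p14, 250 bases before to 50 after the start) matched 7 of the 10 genes, all but ETV4, ETV5 and ETS1. The 3 windows below are shown because ETV1 is the PEA3 gene with a window and because GABPA and ELK4 were the 2 of 7 with the extended ETS core CCGGAAGT on either strand. They lie at chr7:13990653-13990952 on the minus strand for ETV1, chr21:25734722-25735021 on the plus strand for GABPA and chr1:205631962-205632261 on the minus strand for ELK4, and are written 5′ to 3′ along the gene. Capitals mark GGAA on either strand, which is printed as TTCC where it lies on the opposite strand. Each CCGGAAGT holds 1 of these GGAA cores.
ETV1: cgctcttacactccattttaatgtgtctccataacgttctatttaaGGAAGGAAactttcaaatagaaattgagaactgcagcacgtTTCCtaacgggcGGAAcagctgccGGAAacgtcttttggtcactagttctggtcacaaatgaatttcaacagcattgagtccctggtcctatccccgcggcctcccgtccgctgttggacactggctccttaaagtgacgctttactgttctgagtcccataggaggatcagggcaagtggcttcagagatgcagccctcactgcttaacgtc
GABPA: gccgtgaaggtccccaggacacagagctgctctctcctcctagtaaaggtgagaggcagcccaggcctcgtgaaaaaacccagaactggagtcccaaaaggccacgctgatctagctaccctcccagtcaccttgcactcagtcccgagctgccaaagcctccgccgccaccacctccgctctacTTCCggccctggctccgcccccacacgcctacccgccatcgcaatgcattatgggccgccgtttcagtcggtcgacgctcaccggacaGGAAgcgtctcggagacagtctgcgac
ELK4: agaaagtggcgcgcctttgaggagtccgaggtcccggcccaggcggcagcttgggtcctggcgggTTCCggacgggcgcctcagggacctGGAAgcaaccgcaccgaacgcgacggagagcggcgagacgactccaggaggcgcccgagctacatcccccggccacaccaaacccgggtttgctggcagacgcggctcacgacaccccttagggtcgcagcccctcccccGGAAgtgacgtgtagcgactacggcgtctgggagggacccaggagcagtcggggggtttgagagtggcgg

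The ETV1 window held 5 GGAA cores, of which 4 read along the gene, at positions -204, -200, -151 and -139 from the start, and 1 against it at -163. ELK4 held 3 cores and GABPA 2. GGAA occurred in 95.5% of 35116 windows of the same length, so its presence sets none of these genes apart. CCGGAAGT began at -22 in ELK4 and, on the opposite strand, at -67 in GABPA, and it occurred in 4.14% of windows. The CIC octamers TGAATGAA, TGAATGGA, TCAATGAA and TCAATGGA, of which at least 1 was found in 3.77% of windows, had no match in the 7 windows. Neither did the cyclic AMP element TGACGTCA (1.85% of windows) or the AP-1 element TGACTCA (4.95%). A match is not a binding site, and a lack of one says only that these letters are absent from this window. The windows of ETV1, GABPA and ELF1 lie wholly inside the GENCODE release 29 bounds of their genes. Other starts of these genes were not scanned.

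Levels are given in TPM, the transcript abundance that the authors deposited, which is scaled per length and so allows genes to be compared. The columns summed to between 998901 and 998955 TPM, and TPM keeps no sequencing depth, so no counting interval can be given. RNASEH1, the gene of RNase H1, was measured at 29.93 and 29.67 TPM in the libraries labelled oeRNH1, against 32.09 and 32.8 TPM in those labelled oeFlag. The labelled overexpression was thus not visible in its TPM, and groups are named by their labels throughout. All 8 markers of HEK293T had a mean of 1 TPM or more, and they summed to 1379 and 1354 TPM in the libraries labelled oeRNH1 and to 1380 and 1397 TPM in those labelled oeFlag. Most of that sum was VIM, and the markers moved apart beneath it: limma called IRS4, NEFM, NEFL and LIN28B lower and VIM, KRT8 and KRT18 higher, and PAX2 did not pass. IRS4, an insulin receptor substrate typical of this line, was at 106.57 and 99.86 TPM in the libraries labelled oeRNH1, against 216.94 and 217.96 TPM in those labelled oeFlag (log2 change -1.07 ± 0.05, limma adjusted p = 0.00223), and the part of these marker differences in the results below was not tested. Endothelial markers summed to at most 1.13 TPM in any library, and HBB, a marker of red blood cells, was at 0 in all 4. Fibroblast markers (1 of 4 at a mean of 1 TPM or more) summed to 15.14 and 19.05 TPM in the libraries labelled oeRNH1 and to 19.67 and 19.39 TPM in those labelled oeFlag. The 3 liver markers, of which only ALB reached a mean of 1 TPM, summed to 1.75 and 2.54 TPM in the libraries labelled oeRNH1 and to 0.62 and 1.04 TPM in those labelled oeFlag, with TTR at 0 in all 4, and the part of such cells in the results was not tested.

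The PEA3 genes were low in the libraries labelled oeFlag, where each of the 7 other factors was more abundant. ETV5 and ETV4 were called higher in the libraries labelled oeRNH1 and ETV1 was not called. The 7 other factors differed by at most 1.25-fold in mean TPM, ELF1 alone of them being called. ETV5, which with ETV4 acts downstream of FGF and RET signals in the mouse limb and kidney, was measured at 14.21 and 13.91 TPM in the libraries labelled oeRNH1, against 1.81 and 2.42 TPM in those labelled oeFlag. Both libraries labelled oeRNH1 lay far above both labelled oeFlag, and the closest pair of libraries still differed 5.75-fold. The group means were 14.1 ± 0.212 and 2.12 ± 0.431 TPM (SD, n = 2 each), a ratio of 6.65. On the log2(TPM + 1) scale used for the fit the change was 2.28 ± 0.14 (SE), and 0.0511% of the 15651 tested genes had a larger increase. RNA of a whole culture was sequenced, so more cells with the transcript and more transcript per cell cannot be told apart.

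ETV4, the founding PEA3 factor, was measured at 3.77 and 4.83 TPM in the libraries labelled oeRNH1, against 0.98 and 0.7 TPM in those labelled oeFlag. The groups did not overlap, and the ratio of the means, 4.3 ± 0.75 over 0.84 ± 0.198 TPM (SD, n = 2 each), was 5.12. Its change was 1.52 ± 0.20 on the log2(TPM + 1) scale, against 2.36 for the plain log2 ratio of the mean TPM, since the added 1 weighs on a gene this low. ETV4 reached the minimum mean of 1 TPM only through the libraries labelled oeRNH1, so its presence among tested genes already depended on its being higher there.

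ETV1, the PEA3 member known from neurons and from gene fusions in prostate cancer, was at 6.12 and 4.9 TPM in the libraries labelled oeRNH1, against 4.1 and 2.59 TPM in those labelled oeFlag. The groups did not overlap, but the lower library labelled oeRNH1 exceeded the higher one labelled oeFlag only 1.2-fold. The means were 5.51 ± 0.863 and 3.35 ± 1.07 TPM (SD, n = 2 each), a ratio of 1.65, and the log2 change was 0.60 ± 0.21, which was not called. Its 95% interval, 0.09 to 1.11, did not reach that of ETV5 (1.94 to 2.62).

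**Figure D1:**
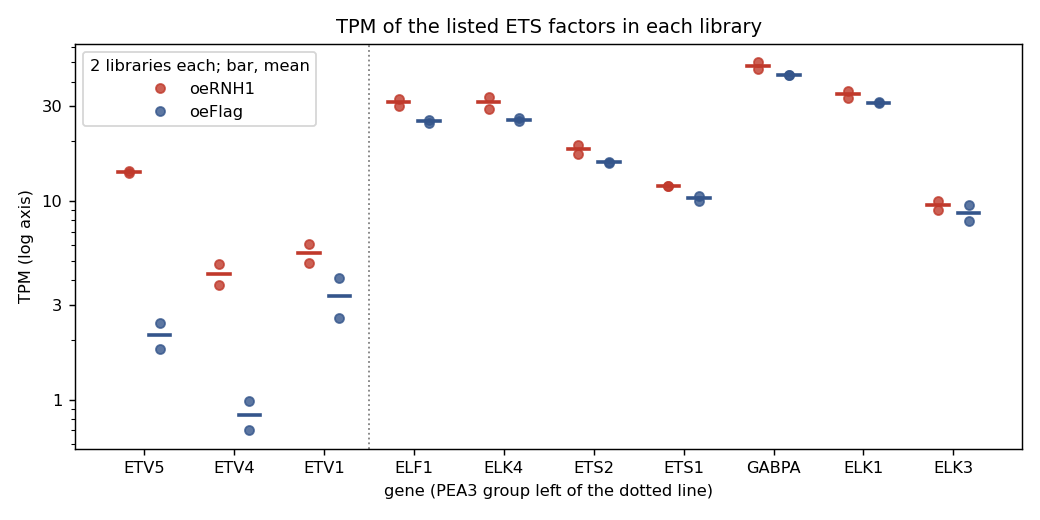
TPM of each of the 10 factors on a log axis, with a point for each library and a bar at the mean of 2 libraries, oeRNH1 left of oeFlag for each gene. The PEA3 genes left of the dotted line show the wide gaps, with ETV5 at 14.1 against 2.12 TPM, and ELK3 is the gene whose libraries overlap.

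The make-up of the PEA3 group differed between the labels. Its summed level was 24.1 and 23.64 TPM in the libraries labelled oeRNH1, against 6.89 and 5.71 TPM in those labelled oeFlag, a ratio of 3.79. ETV5 made up 58.9% ± 0.0861 of that sum in the libraries labelled oeRNH1 and 34.3% ± 11.4 in those labelled oeFlag (SD, n = 2 each). ETV1 made up 23.1% ± 3.3 of it in the libraries labelled oeRNH1 and 52.4% ± 10 in those labelled oeFlag. ETV4 made up 18.0% ± 3.39 in the libraries labelled oeRNH1 and 13.2% ± 1.39 in those labelled oeFlag. None of these shares overlapped between the groups, ETV1 being the most abundant of the 3 in the libraries labelled oeFlag and ETV5 in those labelled oeRNH1. With 2 against 2 libraries an exact two-sided permutation test cannot go below p = 0.333, so no such test was run.

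**Figure D2:**
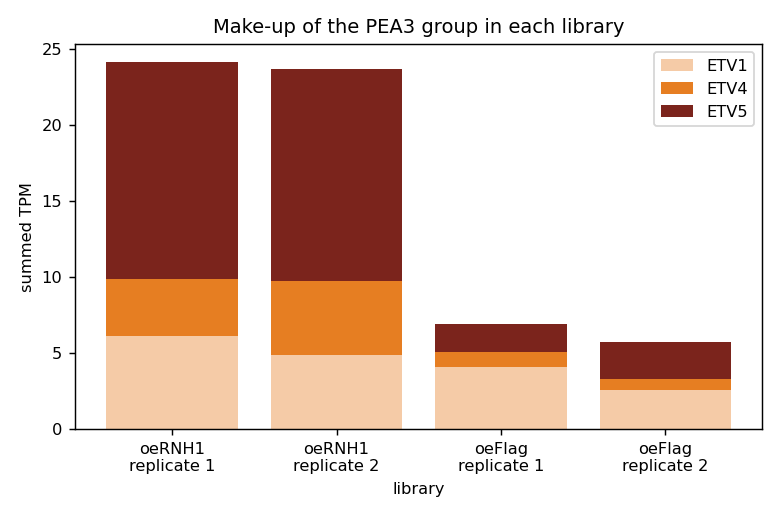
Summed TPM of ETV1, ETV4 and ETV5 as stacked bars, a bar for each library, with the libraries labelled oeRNH1 on the left. The bars reach 24.1 and 23.64 TPM for oeRNH1 and 6.89 and 5.71 TPM for oeFlag, and most of the difference is the dark ETV5 part.

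The 3 ternary complex factors were each slightly higher in mean in the libraries labelled oeRNH1. ELK1 was at 36.08 and 33.08 TPM in the libraries labelled oeRNH1, against 31.44 and 31.35 TPM in those labelled oeFlag (log2 change 0.13 ± 0.07). ELK4 was at 33.63 and 29.29 TPM in the libraries labelled oeRNH1, against 25.22 and 26.36 TPM in the libraries labelled oeFlag (0.27 ± 0.09). ELK3, also called NET and a repressor until ERK phosphorylates it, was at 10.07 and 9.03 TPM in the libraries labelled oeRNH1, against 9.53 and 7.99 TPM in the libraries labelled oeFlag (0.12 ± 0.12). ELK1 and ELK4 did not overlap between groups, ELK3 did, and the interval of ELK3 ran from -0.18 to 0.41.

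The factors outside the PEA3 and ELK groups showed differences of the same small size. GABPA, the most abundant of the 10, was at 50.05 and 46.37 TPM in the libraries labelled oeRNH1, against 43.33 and 43.43 TPM in those labelled oeFlag (log2 change 0.15 ± 0.06). ELF1 was at 32.63 and 30.27 TPM in the libraries labelled oeRNH1, against 25.79 and 24.7 TPM in the libraries labelled oeFlag (0.31 ± 0.07, the largest of the 7). The proto-oncogene product ETS1 was at 11.88 and 11.91 TPM in the libraries labelled oeRNH1, against 10.65 and 10.04 TPM in those labelled oeFlag (0.19 ± 0.09). Its relative ETS2 was at 17.34 and 19.15 TPM in the libraries labelled oeRNH1, against 15.53 and 15.82 TPM in those labelled oeFlag (0.21 ± 0.09). In all 4 both libraries labelled oeRNH1 lay above both labelled oeFlag, as they did in 31.3% of all tested genes. The lowest of the PEA3 changes, ETV1 at 0.60, was above the highest of the other 7, ELF1 at 0.31, though the 95% intervals of these 2 genes overlap (0.09 to 1.11 for ETV1 and 0.13 to 0.48 for ELF1).

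**Figure D3:**
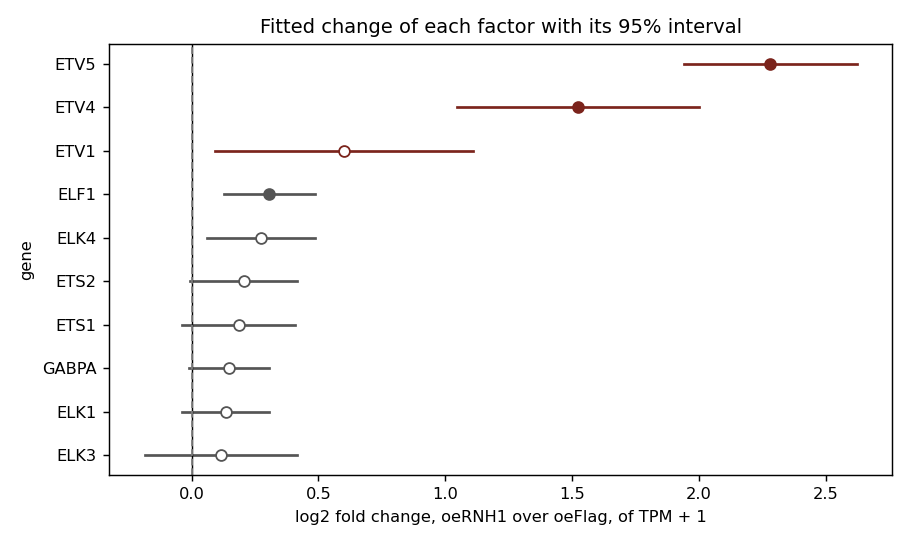
Log2 fold change of TPM + 1, oeRNH1 over oeFlag, for each factor with its 95% interval from the model over all tested genes. Filled points passed an adjusted p of 0.05, the dashed line is the median of all tested genes (0.00), and ETV5 and ETV4 at 2.28 and 1.52 lie apart from the 7 other factors at 0.12 to 0.31.

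Across the 10 factors, 3 were called higher by limma at a Benjamini-Hochberg adjusted p under 0.05 (ETV5, ETV4 and ELF1), none was called lower and 7 were not called, where 11.8% of all tested genes were called in either direction and 6.3% higher. In 9 of 10 both libraries labelled oeRNH1 lay above both labelled oeFlag, where 31.3% of tested genes did so. These counts are read no further, because the list was chosen with this comparison known and ETV4 passed the filter through the group in which it is high. The median log2 change was 1.52 over the PEA3 genes and 0.19 over the other 7, a difference of 1.34, beside 0.00 over all 15651 tested genes. That difference depended on the number added before taking logs, being 2.03 with 0.1 and 0.53 with 5 added. Most of these calls were lost when 1 library was left out: without oeFlag replicate 2 ETV5 alone of the 10 was called, and without oeFlag replicate 1, oeRNH1 replicate 1 or oeRNH1 replicate 2 none was, where 15, 1, 0 and 1 of all genes were called and 3367 to 4035 had an unadjusted p under 0.05 in limma. The changes themselves kept their direction, at 1.38 to 1.67 for ETV4 and 2.14 to 2.42 for ETV5. ETV1 was at 0.35 without oeFlag replicate 2 and at 0.85 without oeFlag replicate 1, beside 0.60 with all 4 libraries.

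The order of levels shows where the change placed the PEA3 genes. In the libraries labelled oeRNH1 GABPA was the most abundant at 48.2 TPM, followed by ELK1 (34.6), ELK4 (31.5) and ELF1 (31.4), whose neighbouring values overlapped, then ETS2 (18.2), ETV5 (14.1), ETS1 (11.9), ELK3 (9.55), ETV1 (5.51) and ETV4 (4.3). In the libraries labelled oeFlag the order of the 7 other factors was the same, overlapping between ELK4 (25.8) and ELF1 (25.2), and the PEA3 genes stood last at 3.35 TPM for ETV1, 2.12 for ETV5 and 0.84 for ETV4. ETV5 thus stood above ETS1 and ELK3 in the libraries labelled oeRNH1 and below both in those labelled oeFlag.

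Set against the whole ETS family, the PEA3 genes remained a small part. The 28 family members in the table summed to 398.1 and 390.8 TPM in the libraries labelled oeRNH1, against 339.3 and 327.2 TPM in those labelled oeFlag, a ratio of 1.18. The PEA3 share of that sum was 6.05% ± 0.00294 in the libraries labelled oeRNH1 and 1.89% ± 0.202 in those labelled oeFlag (SD, n = 2 each). The 7 other listed factors held 47.0% ± 1.64 of it in the libraries labelled oeRNH1 and 48.2% ± 0.857 in those labelled oeFlag. Of the 18 family members outside the list 8 were tested, with 2 called higher, 0 lower and 6 not called, and a median of 0.20. Among all tested genes 6.3% were called higher and 11.8% in either direction. ETV3, a repressor, rose by 0.36 ± 0.06 and ELF4 by 0.30 ± 0.07 (limma adjusted p = 0.0226 and 0.0459). FLI1 was at 0.28 ± 0.13 and ELF3 at 0.41 ± 0.23, and neither was called. ELF3, with the largest change of the 8, averaged 0.86 TPM in the libraries labelled oeFlag. Like ETV4, it reached the minimum mean of 1 TPM only through the libraries labelled oeRNH1, so the median of the 8 depends in part on that filter.

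The antisense transcripts ETV5-AS1 and ETS1-AS1 were listed at no more than 0.24 TPM in any library. Whether counting used strand is not stated in the labels, so reads of overlapping antisense genes may not have been told apart. The PEA3 genes lie on separate chromosomes, ETV1 on chromosome 7 (13891228 to 13991425), ETV4 on chromosome 17 (43527844 to 43579620) and ETV5 on chromosome 3 (186046308 to 186110318), all on the minus strand (GENCODE release 29, GRCh38). Their longest transcripts have a GC content of 38.1%, 60.8% and 48.6%, so they span nearly the range of the 10 factors (36.4% for GABPA to 60.8%). After a correction for GC content the changes were 0.53 for ETV1, 1.60 for ETV4 and 2.27 for ETV5, and ELF1, at 0.23, was no longer called.

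Lists of related genes follow, whose calls rested on all 4 libraries: no gene in the 6 lists was called when any 1 library was left out, when no filter was applied or when the variance had no intensity trend. Of 11 repressor and ubiquitin ligase genes that limit PEA3 factors 2 were called higher, 0 lower and 9 not, where 11.8% of all tested genes were called, and their median was -0.04. CIC, the repressor of the PEA3 genes, was at 20.28 and 18.6 TPM in the libraries labelled oeRNH1, against 19.26 and 18.77 TPM in those labelled oeFlag, and the groups overlapped (log2 change 0.03 ± 0.08, 95% interval -0.17 to 0.23). COP1, the ubiquitin ligase that targets PEA3 proteins, was at -0.04 ± 0.06, and DET1, which joins it in a ligase complex, at -0.22 ± 0.11. ATXN1L, a partner that stabilises CIC, rose by 0.34 ± 0.07 and TRIB1, a pseudokinase that brings substrates to COP1, by 0.51 ± 0.09 (limma adjusted p = 0.0327 and 0.0282). TRIB3 at 0.39 ± 0.11 did not pass, though it passed with a minimum mean of 5 TPM (limma adjusted p = 0.045). In that setting and with a replicate block 3 of the 11 genes were called higher. Protein levels and phosphorylation were not measured.

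Partners of ETS factors held 12 tested genes, of which 0 were called higher, 1 lower and 11 not. Among all tested genes 11.8% were called, and the median of the partners was 0.08. ID2, whose family can block DNA binding of ternary complex factors, fell by 0.33 ± 0.05 on the log2 scale (limma adjusted p = 0.0188), at 167.72 and 179.34 TPM in the libraries labelled oeRNH1 against 220.63 and 215.53 TPM in those labelled oeFlag. SRF, the partner of the ELK proteins, was at 0.23 ± 0.07, the coactivator CREBBP at 0.24 ± 0.06 and the Mediator subunit MED23, which binds phosphorylated ELK1, at 0.28 ± 0.07. These 3 missed the threshold (limma adjusted p = 0.0717, 0.0565 and 0.0596), though SRF passed after GC correction and CREBBP and MED23 passed with a minimum mean of 5 TPM (adjusted p = 0.0381 and 0.0374) and with a replicate block (adjusted p = 0.0444 and 0.0374).

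Of 27 genes on the route from FGF receptors to ERK 2 were called higher, 1 lower and 24 not, a share near the 11.8% called among all tested genes, and their median was 0.04. FGFR4 was at 13.93 and 15.09 TPM in the libraries labelled oeRNH1, against 23.73 and 23.99 TPM in those labelled oeFlag, and fell by 0.68 ± 0.08 (limma adjusted p = 0.0116). FRS2, the docking protein of FGF receptors, rose by 0.45 ± 0.07 (limma adjusted p = 0.0188). NRAS rose by 0.23 ± 0.05 (limma adjusted p = 0.0403), a call lost under quantile normalization (adjusted p = 0.0526) and GC correction (adjusted p = 0.08), and the kinase MAP2K1 at 0.18 ± 0.05 did not pass.

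Transcripts commonly used as a readout of ERK activity included many called genes. Of 11 tested MAPK output genes other than the PEA3 genes 7 were called higher, 0 lower and 4 not. Their median was 0.60, beside 0.00 over all tested genes, of which 6.3% were called higher. The 4 not called were DUSP4 (0.63 ± 0.17), PHLDA1 (0.19 ± 0.20), CCND1 (0.16 ± 0.07) and EPHA4 (0.04 ± 0.17). FOSL1, an AP-1 subunit, rose by 1.40 ± 0.13, and the feedback inhibitors SPRY2, SPRED2 and SPRY4 by 1.14 ± 0.10, 0.86 ± 0.12 and 1.33 ± 0.22. SPRY4, another gene that CIC is known to repress, was at 1.79 and 2.02 TPM in the libraries labelled oeRNH1 against 0.18 and 0.13 TPM in those labelled oeFlag and, like ETV4, passed the filter only through the libraries labelled oeRNH1. SPRY2 was at 31.0 and 26.8 TPM in the libraries labelled oeRNH1 against 13.32 and 11.83 TPM in those labelled oeFlag. DUSP6, an ERK phosphatase, was too low to be tested, at 1.34 and 1.08 TPM in the libraries labelled oeRNH1 against 0.39 and 0.43 TPM in those labelled oeFlag. Of 8 tested SRF and ternary complex factor targets 7 were called higher, 0 lower and 1, SRF itself, was not called. Their median was 0.54, and 6.3% of all tested genes were called higher. FOS rose by 1.85 ± 0.11, EGR1 by 1.58 ± 0.11, FOSB by 1.33 ± 0.14 and the survival factor MCL1 by 0.44 ± 0.04. Both lists were written with earlier results of these data known and are no independent support for the PEA3 change, and the activity of ERK was not measured.

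**Figure D4:**
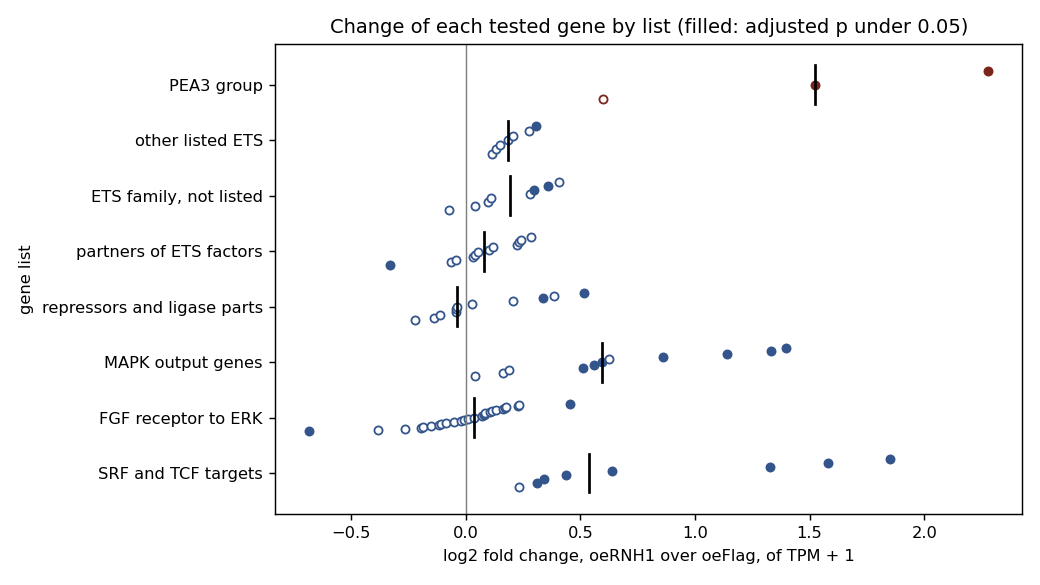
Log2 fold change of TPM + 1, oeRNH1 over oeFlag, for each tested gene in 8 lists, with a black line at each list's median and filled points for an adjusted p under 0.05. The PEA3 genes at the top have a median of 1.52, the MAPK output genes 0.60 and the SRF targets 0.54, while the genes from FGF receptor to ERK lie around 0.04.

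The genes whose values over the 4 libraries were most like those of each PEA3 gene were found by Euclidean distance of centred log2(TPM + 1) values among the 11237 candidates averaging 5 TPM or higher. For ETV5 they were CGA, ANKRD1 and GCNA, at distances of 0.308, 0.330 and 0.438. For ETV4 they were GADD45B, MAFF and TCEAL7 (0.150, 0.205 and 0.230), of which MAFF was at 11.98 and 12.75 TPM in the libraries labelled oeRNH1 against 3.83 and 2.81 TPM in those labelled oeFlag. For ETV1 they were the zinc finger genes ZNF585A, ZNF417 and ZNF124 (0.055, 0.114 and 0.144). ZNF585A was at 11.49 and 9.52 TPM in the libraries labelled oeRNH1 against 8.31 and 5.23 TPM in those labelled oeFlag, and so shared with ETV1 a gap between the libraries of each group. These distances rest on 4 libraries in 2 groups. CGA, MAFF and TCEAL7 averaged 5 TPM only through the libraries labelled oeRNH1, so the choice of candidates favoured genes that are high there.

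**Figure D5:**
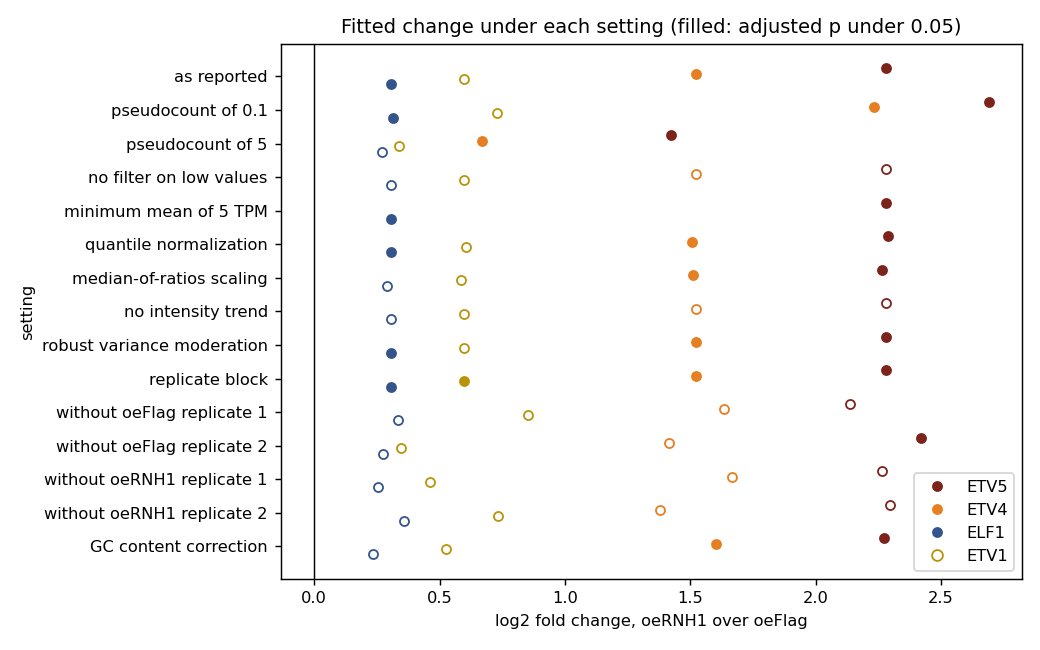
Log2 fold change, oeRNH1 over oeFlag, of ETV5, ETV4, ETV1 and ELF1 under each setting, from the reported fit at the top to GC correction at the bottom, with filled points for an adjusted p under 0.05. The 4 genes stay above 0 throughout, ETV5 between 1.42 and 2.69. None of the 4 is called with no filter on low values or with no intensity trend. Calls are also lost when any 1 library is left out, except for ETV5 without oeFlag replicate 2. ELF1 is further not called with a pseudocount of 5, with median-of-ratios scaling or with GC correction.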

How the data were processed

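RNA of HEK293T cells was sequenced in 2 libraries labelled oeRNH1 and 2 labelled oeFlag. The authors deposited a table of TPM with 1 column per library, for which STAR and hg38 are named per the submitters' processing notes. The sources used here give neither their versions nor the quantification program or annotation. Depth is unknown, since TPM does not keep it.

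The 15651 genes averaging 1 TPM or higher were compared as log2(TPM + 1) with limma 3.58.1 in R 4.3.3, with a group term and variances following an intensity trend, two-sided, with Benjamini-Hochberg adjustment over all of them. An adjusted p under 0.05 is a call. Fold changes on this scale understate those of low genes. The fit was tested on simulated data. Gene models and GC content came from GENCODE 29, which 97.9% of tested genes matched, and promoters from RefSeq (GRCh38.p14).

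The 10 factors, the lists and the markers were chosen with earlier results of these data known. Named were all 10 factors, in each list the 4 genes with the smallest p and all called genes where at most 5 were called, the 3 nearest profiles of each PEA3 gene, RNASEH1, DUSP6 and SPRY2. CIC and COP1 were named for their role. The antisense genes, the HEK293T markers, the MAPK output genes not called and those under other observations were named after their values were seen. Alternatives were pseudocounts of 0.1 and 5, no filter, a minimum of 5 TPM, no trend, scaling by median of ratios or by quantiles, robust variances, a replicate block and leaving out each library. GC correction (spline, 4 degrees of freedom) was added after seeing the data. No pair of libraries was a duplicate, with at most 0.422% of tested genes identical. Figures used matplotlib 3.10.9.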

Additional observations from a re-analysis of the deposited data

How the results depend on the processing

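The direction of change of all 10 factors was upward under each of the 14 alternatives in which the gene was fitted. For ELK3 it was so in sign only without oeFlag replicate 2, where its log2 change was 0.001. The calls did not hold throughout. With no filter on low values 0 genes and 0 factors were called by limma (5655 genes at an unadjusted p under 0.05), and with no intensity trend 1 gene and 0 factors. Leaving out 1 library at a time gave 0 to 15 called genes and 0 to 1 called factors (3367 to 4035 genes at an unadjusted p under 0.05). Such fits have a lone library in an arm, assumed to vary like the other arm. ETV5 was called in 9 of 14 alternatives, ETV4 in 7 of 13, ELF1 (adjusted p = 0.0493 as reported) in 5 of 14 with adjusted p from 0.0311 to 0.214, and ETV1 in 1 of 13. The PEA3 median minus the other median was 2.03 with a pseudocount of 0.1 and 0.53 with 5. With a minimum of 5 TPM it was 2.10, resting on ETV5 alone, as ETV1 and ETV4 were not fitted. ETV5 reached that minimum only through the libraries labelled oeRNH1, so its value and call under it are no further support. Leaving out a library gave 1.18 to 1.49. The replicate block gave 2442 called genes and 4 called factors, with ETV1 added (adjusted p = 0.0453). Deviations of same-numbered libraries correlated at 0.031 over tested genes and at 0.133 over the 11245 genes with a mean of 5 TPM or more. With 2 libraries a group and no label tying a number to a batch, the numbers are not taken as pairs.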

Other observations

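Several ETS factors that mark other lineages were at or near 0 in these cells, but FLI1 and ELF3 were higher. FLI1 was at 5.14 and 5.8 TPM in the libraries labelled oeRNH1 and at 4.51 and 4.14 TPM in those labelled oeFlag. ELF3 was at 1.21 and 1.72 TPM in the libraries labelled oeRNH1 and at 0.68 and 1.04 TPM in those labelled oeFlag. SPI1, of myeloid and B cells, was at 0.26 and 0.18 TPM in the libraries labelled oeRNH1 and at 0.17 and 0.09 TPM in those labelled oeFlag. ERG, of endothelium, was at 0.02 TPM in 1 library labelled oeRNH1 and at 0 in the other 3 libraries. ELF5, of epithelia, was at 0 in all 4 libraries. SPDEF, also of epithelia, was at 0 in both libraries labelled oeRNH1 and at 0.06 and 0 TPM in those labelled oeFlag. FEV, of serotonin neurons, was at 0.2 and 0.22 TPM in the libraries labelled oeRNH1 and at 0.08 and 0 TPM in those labelled oeFlag. ERF, an ETS repressor that ERK exports from the nucleus, was among the most abundant of the family, at 43.4 and 49.6 TPM in the libraries labelled oeRNH1 and 50.42 and 47.45 TPM in those labelled oeFlag, and the groups overlapped (log2 change -0.07 ± 0.08). ELF2 was at 49.31 and 49.73 TPM in the libraries labelled oeRNH1 and 49.25 and 43.47 TPM in those labelled oeFlag (0.10 ± 0.07).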
